A study of Mus musculus with 7 samples.

Results

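The genes described here are 9 genes of fibrinolysis and local coagulation in skin, Plau, Plaur, Plat, F3, F13a1, Thbd, Anxa2, S100a10 and Fgl2. They were chosen by function and matched by gene symbol, 1 probe set each, among the 23185 genes with 1 symbol in the platform annotation, and all 9 were found. Expression was measured with Affymetrix whole-transcript arrays in lesional skin of male C57BL/6 mice aged 9 weeks. The 4 knockout arrays came from ox40l-/- mice and the 3 wild type arrays from ox40l+/+ mice. Mice of both genotypes had been injected with bleomycin, an agent used to induce skin fibrosis, for 3 weeks, so every array carries that treatment and the response to bleomycin itself cannot be read from them. The labels do not say how the allele was made, or whether each array stands for a different animal, so p-values measure the spread between arrays, which may be technical. OX40L is a costimulatory ligand for T cells, and the study set out to learn what its absence changes in bleomycin-injected skin.

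Coagulation begins when tissue factor, the product of F3, binds factor VII outside the vessels, and it ends in fibrin that factor XIII cross-links. Fibrin is removed by plasmin, which urokinase (Plau) and tissue-type plasminogen activator (Plat) release from plasminogen, urokinase while bound to its receptor (Plaur) and the tissue-type enzyme on fibrin or on cell-surface annexin A2 (Anxa2) with its partner p11 (S100a10). In skin, keratinocytes, endothelium, fibroblasts and macrophages each make some of these proteins, while fibrinogen, prothrombin and plasminogen are made mainly by the liver.

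Promoter sequence is shown because it is a feature that the choice of genes did not use. RefSeq windows of build GRCm38.p6, from 250 bases before to 50 bases after a gene's start and 300 bases long, were matched by symbol for 5 of the 9 genes, with 6 windows in all. Each was searched on both strands for TGANTCA, the site of AP-1 factors (a palindrome, so both strands give the same matches), for CCAAT, for the GC box GGGCGG and for TATAAA. The AP-1 motif was present in windows of 4 genes, Anxa2, Plaur, F3 and Fgl2, and in 7.81% of all 32851 promoter windows. The windows of those 4 genes follow, 5′ to 3′ on the strand of the gene, with matches to any of the 4 motifs in capitals.
Anxa2, chr9:69453433-69453732, plus strand: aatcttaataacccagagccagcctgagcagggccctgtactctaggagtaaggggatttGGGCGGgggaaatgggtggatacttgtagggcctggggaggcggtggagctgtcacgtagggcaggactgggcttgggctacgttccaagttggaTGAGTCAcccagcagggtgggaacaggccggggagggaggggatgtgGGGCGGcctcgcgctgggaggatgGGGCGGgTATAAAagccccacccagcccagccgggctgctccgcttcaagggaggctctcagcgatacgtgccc
Plaur, chr7:24462233-24462532, plus strand: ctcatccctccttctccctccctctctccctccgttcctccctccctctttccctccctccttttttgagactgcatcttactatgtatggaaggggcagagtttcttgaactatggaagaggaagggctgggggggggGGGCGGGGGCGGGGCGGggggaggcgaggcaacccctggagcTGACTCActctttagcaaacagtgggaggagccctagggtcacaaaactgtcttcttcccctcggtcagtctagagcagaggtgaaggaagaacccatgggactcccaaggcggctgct
F3, chr3:121723287-121723586, plus strand: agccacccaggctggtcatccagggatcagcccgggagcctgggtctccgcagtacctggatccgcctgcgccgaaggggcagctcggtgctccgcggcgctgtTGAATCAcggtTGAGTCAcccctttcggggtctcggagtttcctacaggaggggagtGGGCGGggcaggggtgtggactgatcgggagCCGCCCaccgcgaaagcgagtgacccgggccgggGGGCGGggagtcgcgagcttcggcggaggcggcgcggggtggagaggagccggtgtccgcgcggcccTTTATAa
Fgl2, chr5:21372423-21372722, plus strand: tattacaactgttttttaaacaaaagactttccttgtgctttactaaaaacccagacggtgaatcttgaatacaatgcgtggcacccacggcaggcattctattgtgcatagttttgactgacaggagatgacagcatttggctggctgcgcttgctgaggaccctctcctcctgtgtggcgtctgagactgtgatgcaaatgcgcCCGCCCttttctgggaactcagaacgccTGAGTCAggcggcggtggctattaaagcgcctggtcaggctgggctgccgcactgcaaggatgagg
Counted from the start site, with negative numbers upstream, TGANTCA began at -95 in Anxa2, at -69 in Plaur, at -146 and -135 in F3 and at -16 in Fgl2. GGGCGG was present in the same 4 genes and in 35.7% of all windows, and some of its matches in Plaur overlap each other. TATAAA was found in Anxa2, at -17, and in F3, against 13.6% of all windows, and CCAAT in 1 of the windows of F13a1, against 37.4%. The TATAAA match of F3, at 43, lay downstream of the start site and on the strand opposite the gene. F13a1 had no TGANTCA in either of its windows. Such matches describe letters in a window and are not evidence of binding.

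The arrays were not equally alike, and this touches most results below. Pairs of arrays without wild type replicate 1 or 3 correlated at 0.956 to 0.968 over probe sets, and pairs with either of them at 0.761 to 0.914. Wild type replicate 1 had the widest distribution of log2 values (SD 1.72) and wild type replicate 3 the narrowest (SD 1.22), with SDs of 1.38 to 1.48 elsewhere. Among markers of the labelled tissue, 8 of 8 keratinocyte and 7 of 8 fibroblast markers lay above the median gene. Mean log2 levels were 10.36 for Krt14 and 9.51 for Dcn. Of the skeletal muscle markers 10 of 10 lay above the median gene. So did 4 of 9 measured hepatocyte markers, a list that should be absent from skin, with a highest mean of 7.70. A place above the median gene is thus a weak sign of a cell type. Tnfsf4, the gene of OX40L, was at 2.53, 2.60 and 3.66 in wild type and at 3.35, 2.82, 2.81 and 2.81 in knockout, and since it is not known whether its probes lie in the deleted part, these values check nothing about the labels. Differences below are log2 values, knockout less wild type, each with its standard error (SE) from limma.

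None of the 9 genes differed between the genotypes by more than the spread between arrays. In limma 0 of 9 passed at an adjusted p under 0.05, a threshold that 0.00431% of all genes passed, and 0 of 9 had an unadjusted p under 0.05, against 1.88% of all genes. Exact permutation of the genotype labels, which has 35 arrangements, gave two-sided p-values from 0.229 to 1 for the 9 genes. The smallest two-sided p that this permutation test can give is 0.0571, so no gene could have fallen under 0.05 in it. The genotypes overlapped in every one of the 9, while they did not overlap in 1.91% of all genes. Values were above 0 for 5 genes and below 0 for 4, from -0.48 to 0.25, and the median difference was 0.0096, equal to the median over all genes because Thbd held the middle place in both. The adjusted p was 0.9995 for each of the 9 in limma.

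**Figure D1:**
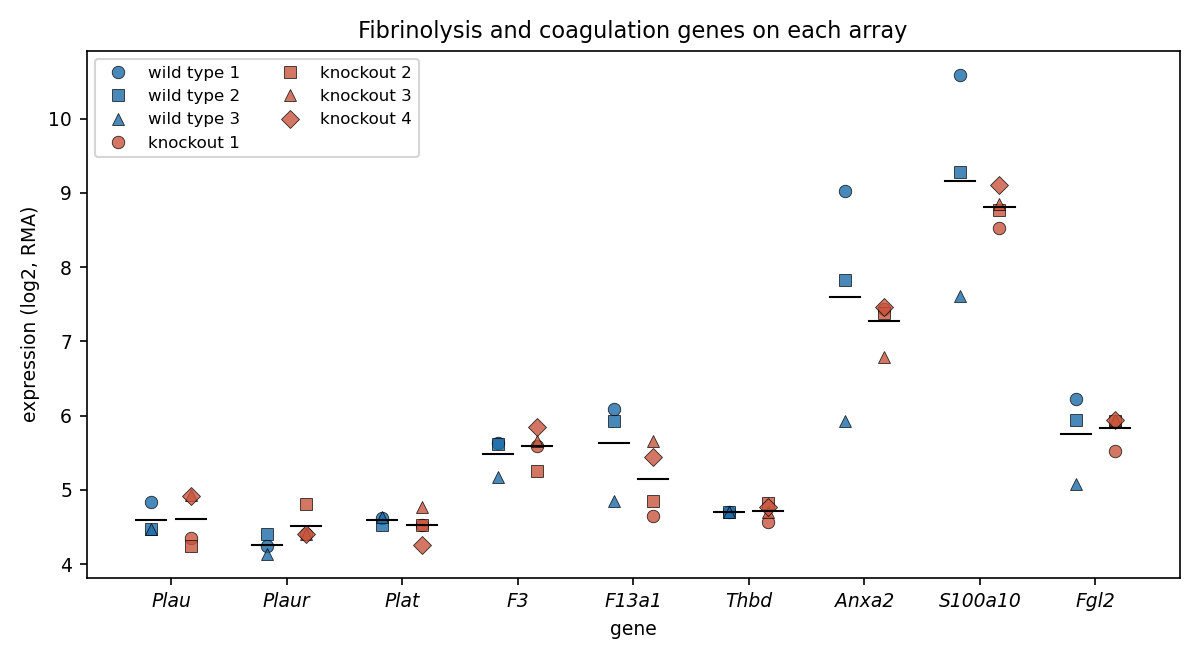
Log2 expression (RMA) of the 9 genes on each of the 7 arrays, wild type in blue and knockout in red, with the replicate given by the symbol and the mean of each genotype by a bar. The wild type values of Anxa2 run from 5.93 to 9.02 and enclose all 4 knockout values, and the genotypes overlap for every gene.

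Neither plasminogen activator differed between the genotypes by more than the spread between arrays. Plau, which encodes urokinase, had log2 values of 4.84, 4.47 and 4.47 on wild type replicates 1 to 3 and of 4.36, 4.25, 4.93 and 4.92 on knockout replicates 1 to 4. The knockout arrays thus held both the highest and the lowest values, with wild type between them. The genotypes differed by 0.02 (SE 0.23, with a 95% confidence interval of -0.51 to 0.55, adjusted p = 0.9995 in limma), and its sign changed with single arrays left out. Plat, the tissue-type activator made by endothelial cells, had values of 4.62, 4.53 and 4.64 in wild type and of 4.53, 4.53, 4.77 and 4.26 in knockout. Wild type lay inside the knockout range. The difference was -0.08 (SE 0.15, interval -0.44 to 0.29).

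Plaur, the urokinase receptor, had the largest positive difference of the 9 genes, 0.25 (SE 0.16, interval -0.13 to 0.62; limma adjusted p = 0.9995). Its values were 4.24, 4.41 and 4.14 in wild type and 4.41, 4.82, 4.41 and 4.41 in knockout. No knockout array lay below any wild type array, but knockout replicates 1, 3 and 4 and wild type replicate 2 carried exactly the same value. The 1 array above that shared value was knockout replicate 2, and without it the difference was 0.14. In every run that left out 1 array the value stayed above 0, from 0.14 to 0.32.

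Exactly shared values were found for 5 of the 9 genes and for 54.3% of all genes. A value shared by at least 4 arrays was found for Plaur and Thbd, and for 10.04% of all genes. Thbd encodes thrombomodulin, the endothelial receptor that turns thrombin towards protein C. It was at 4.70 on all 3 wild type arrays and on knockout replicate 3, and at 4.56, 4.82 and 4.76 on knockout replicates 1, 2 and 4. The difference was 0.01 (SE 0.13, interval -0.28 to 0.30), with knockout values on both sides of the shared one. Median polish, the summary step of RMA as usually run, can return such ties, so the wild type spread of Thbd has no information on its replicate error.

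The annexin A2 complex showed the widest spread of the 9 genes, and the spread was within wild type. Anxa2 had log2 values of 9.02, 7.83 and 5.93 on wild type replicates 1 to 3, and of 7.44, 7.38, 6.79 and 7.46 on knockout replicates 1 to 4. S100a10, whose product p11 binds annexin A2 and plasminogen, was at 10.59, 9.27 and 7.61 in wild type and at 8.52, 8.76, 8.86 and 9.10 in knockout. For both genes wild type replicate 1 was the highest array, replicate 3 the lowest and all knockout arrays lay between them. The gap from wild type replicate 1 to replicate 3 was 3.09 for Anxa2 and 2.98 for S100a10, and 1.33% of all genes had a gap at least as large as that of S100a10 in the same direction. The SD was 1.556 in wild type and 0.319 in knockout for Anxa2, and 1.495 and 0.239 for S100a10, where the median gene had 0.387 and 0.188. After each gene's mean was subtracted, the values of the pair differed by a root mean square of 0.278 over the 7 arrays, and their log2 ratio stayed within 0.512 of its mean. Other genes lay closer to each, such as Atp1b3 to Anxa2 (0.0876) and Grn to S100a10 (0.0728). Within knockout Anxa2 was lowest on replicate 3 and S100a10 on replicate 1, so the likeness rests mainly on the wild type arrays.

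The genotype difference of the pair was set by single wild type arrays. It was -0.33 for Anxa2 (SE 0.65, interval -1.854 to 1.203) and -0.35 for S100a10 (SE 0.62, interval -1.801 to 1.106), each with a limma adjusted p of 0.9995. Without wild type replicate 1 the differences were 0.39 and 0.37, and without wild type replicate 3 they were -1.16 and -1.12. In the run without replicate 3 the intervals lay below 0, at -2.05 to -0.26 for Anxa2 and -2.02 to -0.22 for S100a10. The limma adjusted p was 0.384 or more in these runs. The intervals reach from 0.277-fold to 2.30-fold for Anxa2, so differences of 2-fold in either direction lie within the error of these arrays. Markers of hair follicle, keratinocytes and fibroblasts were also highest on wild type replicate 1. The mean log2 level of the 10 hair follicle markers was 8.09, 5.10 and 4.05 on wild type replicates 1 to 3 and 3.48 to 4.78 in knockout, and 10 of 10 had a difference below 0, with a median of -1.34. The mean log2 level of the 8 keratinocyte markers was 8.56, 7.03 and 6.06 on wild type replicates 1 to 3 and 6.92 to 7.31 in knockout. The 8 fibroblast markers were at 6.58, 6.35 and 5.19 in wild type, and knockout lay at 5.90 to 6.39. The part of cell content in the spread of the pair was not tested, and in whole skin fewer cells of a type and less RNA per cell cannot be told apart. Quantile normalization of the deposited values narrowed the gap between wild type replicates 1 and 3 to 1.85 for Anxa2 and 1.97 for S100a10.

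**Figure D2:**
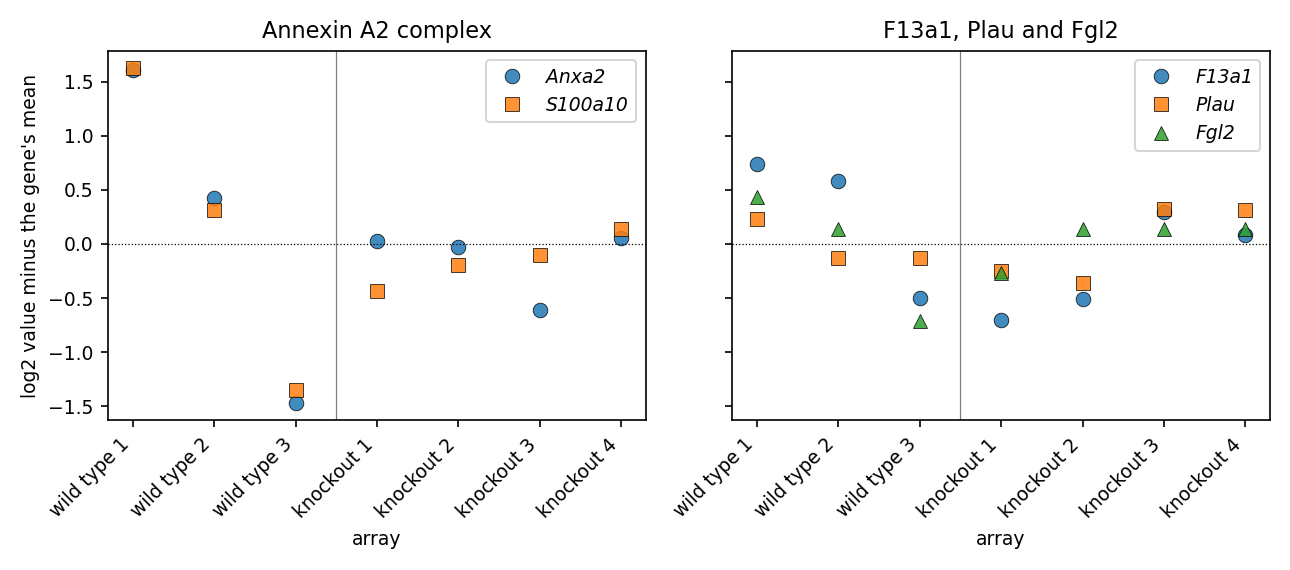
Log2 value of each gene minus its own mean over the 7 arrays, by array, with wild type left and knockout right of the vertical line. Anxa2 and S100a10 take nearly the same places on wild type replicates 1 (1.61 and 1.63) and 3 (-1.48 and -1.35). F13a1 and Plau lie lower on knockout replicates 1 and 2 than on 3 and 4, as S100a10 does by less. Within knockout, Fgl2 lies lower mainly on replicate 1.

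F13a1, the A subunit of factor XIII that macrophages and platelets carry, had the largest negative difference of the 9 genes. Its values were 6.09, 5.93 and 4.86 in wild type and 4.65, 4.85, 5.65 and 5.44 in knockout. Wild type replicates 1 and 2 lay above all knockout arrays, while wild type replicate 3 lay level with knockout replicate 2. The difference was -0.48 (SE 0.37, interval -1.36 to 0.39; limma adjusted p = 0.9995). It stayed below 0 in each run that left out 1 array, from -0.25 without wild type replicate 1 to -0.87 without wild type replicate 3, and none of these runs passed. With array weights the difference was -0.79 and the limma adjusted p 0.0236. That fit did not converge fully and gave wild type replicate 2 a weight of 75.4, against 0.106 and 0.109 for wild type replicates 1 and 3, so its wild type value rests almost wholly on 1 array.

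Macrophage markers were set beside F13a1 because macrophages express it. The mean log2 level of the 9 measured macrophage and monocyte markers was 5.73, 5.94 and 4.95 on wild type replicates 1 to 3 and 5.29, 5.38, 5.27 and 5.71 on knockout replicates 1 to 4. Replicate 3 was the lowest wild type array for F13a1 and for the markers, while within knockout F13a1 was highest on replicate 3, where the markers were lowest. Of the 9, 6 had differences below 0 and 3 above, with a median of -0.19, and 1, the integrin gene Itgam at -0.55, had an unadjusted p under 0.05. Platelet markers, with 7 of 8 differences above 0, had a mean level of 3.56 to 4.22 in wild type and 4.03 to 4.21 in knockout. The part of these cells in the F13a1 values was not tested.

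F13a1 and Plau also varied within knockout. Knockout replicates 1 and 2, whose sample codes share the number 16, lay below replicates 3 and 4 in both genes. The mean of replicates 3 and 4 exceeded that of 1 and 2 by 0.80 for F13a1 and by 0.62 for Plau, and 4.46% of all genes had a gap in either direction at least as large as that of Plau. The same order of these arrays held in F3, S100a10 and Fgl2, with gaps of 0.33, 0.34 and 0.21. In Fgl2 replicate 2 was at 5.930 and replicates 3 and 4 at 5.934, so its gap came almost wholly from replicate 1, at 5.521. How many of all genes have replicates 1 and 2 below 3 and 4 was not counted. Wild type replicates 1 and 2 share the number 17, and 18 is carried by wild type replicate 3 and knockout replicate 3, so a number can span both genotypes. What the codes stand for is not stated, and these gaps were not tested. With the number as a random block, added after seeing the data, the genotype difference of F13a1 was -0.33 and that of Plau 0.08, and 0 of the 9 genes passed in limma.

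Fgl2, a fibrinogen-like protein with prothrombinase activity in mouse macrophages, had values of 6.22, 5.93 and 5.08 in wild type and of 5.52, 5.93, 5.93 and 5.93 in knockout. Wild type again held both extremes. The difference was 0.08 (SE 0.28, interval -0.58 to 0.75), and it was -0.25 without wild type replicate 3 and 0.32 without wild type replicate 1. F3, which encodes tissue factor, was at 5.63, 5.62 and 5.18 in wild type and at 5.58, 5.26, 5.66 and 5.84 in knockout. Wild type replicate 3 and knockout replicate 2 lay lowest and knockout replicate 4 highest, with the other arrays at 5.58 to 5.66. The difference was 0.11 (SE 0.19, interval -0.35 to 0.56), and it was -0.04 without wild type replicate 3.

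**Figure D3:**
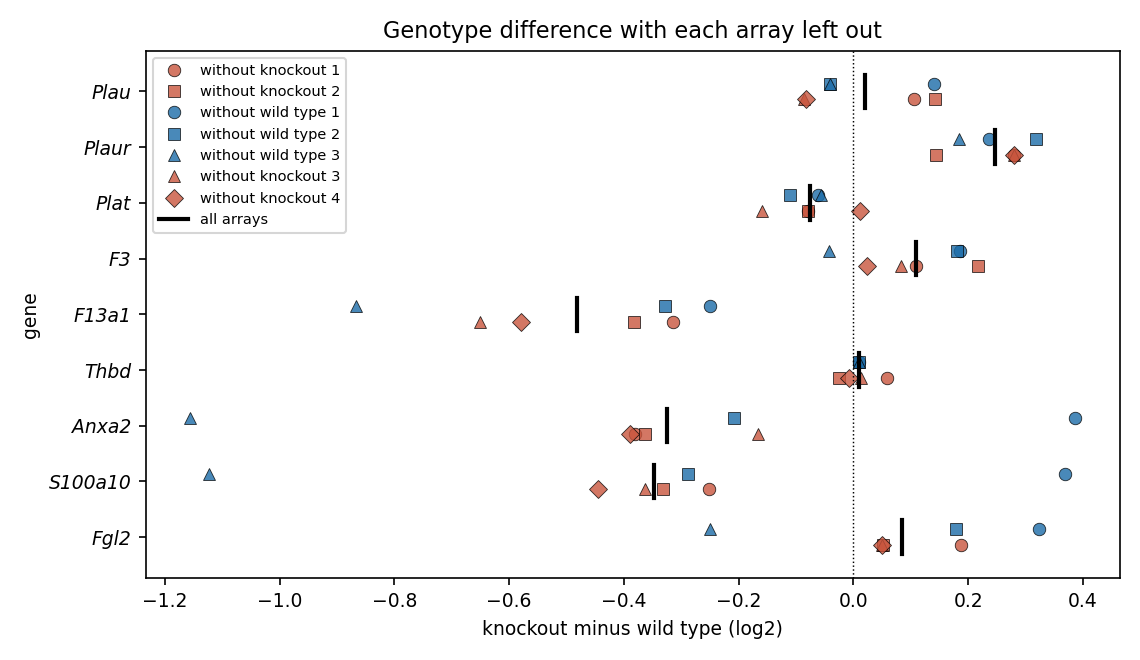
Genotype difference (log2) of each of the 9 genes with all arrays (black line) and with each array left out, coloured by the genotype of the array left out (wild type blue, knockout red). Leaving out wild type replicate 1 or 3 moves Anxa2 between 0.39 and -1.16 and S100a10 between 0.37 and -1.12, while F13a1 stays below 0 and Plaur above 0 in each run.

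The 9 genes were also compared with all genes in their spread. The SD was larger in wild type than in knockout for 5 of the 9 genes (F3, F13a1, Anxa2, S100a10 and Fgl2), and for 76.9% of all genes. Wild type replicates 1 and 3 differed by over 1 for 4 of the 9, Anxa2, S100a10, F13a1 and Fgl2, and for 31.4% of all genes. In each of these 4, replicate 1 was the higher.

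The wider pathway gave no call either. Of 17 other fibrinolysis genes 13 were measured, and in limma 0 passed in either direction, with 0 at an unadjusted p under 0.05. Their differences were above 0 in 9 and below 0 in 4, with a median of 0.11 against 0.0096 over all genes. Serpinb2, an inhibitor of urokinase, had values of 5.70, 6.09 and 4.14 in wild type and of 4.88 to 6.17 in knockout, a difference of 0.30 (SE 0.51) that was -0.29 without wild type replicate 3. Plgrkt, a plasminogen receptor of the cell surface, lay at 5.40, 5.69 and 3.44 in wild type, with knockout at 5.01 to 5.22. Its difference of 0.32 (SE 0.51) was -0.39 without that array. Lrp1, the receptor that clears activators bound to inhibitors, lay at 5.93, 4.84 and 4.44 in wild type, while knockout spanned 4.49 to 4.68, with a difference of -0.50 (SE 0.33) that was -0.07 without wild type replicate 1. Plg, which encodes plasminogen, had a mean of 2.68, below the median gene at 3.598, and a difference of 0.11 (SE 0.22), which was -0.14 without wild type replicate 1.

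Of 33 other coagulation genes 32 were measured, and in limma 0 passed, with 0 at an unadjusted p under 0.05. Differences were above 0 in 20 and below 0 in 12, with a median of 0.05. Procr, the endothelial protein C receptor that works with thrombomodulin, was the 1 gene whose genotypes did not overlap, as was so for 0.815% of all genes in the same, lower direction. Its values were 3.87, 3.41 and 3.71 in wild type and 3.37, 3.37, 3.31 and 3.20 in knockout, close to the median gene. The difference was -0.35 (SE 0.15, interval -0.71 to 0.00; limma adjusted p = 0.9995), and it was -0.25 without wild type replicate 1. With quantile normalization it was -0.34 and without wild type replicate 2 it was -0.48. In both of these runs the interval lay below 0, but the limma adjusted p was 0.982 or more. Without both wild type replicates 1 and 3 it was -0.10. Of 10 endothelial markers 5 had differences above 0 and 5 below, and their mean level was 4.08 to 4.32 in wild type and 4.13 to 4.45 in knockout.

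Vkorc1, the vitamin K reductase needed to make clotting factors, had the largest difference of the wider coagulation list, 0.62 (SE 0.27, interval -0.03 to 1.26). It was at 5.81, 6.12 and 4.96 in wild type and at 6.12, 6.19, 6.44 and 6.22 in knockout. The lowest knockout value was equal to the highest wild type value, and without wild type replicate 3 the difference was 0.28. Without both wild type replicates 1 and 3 it was 0.12. It was 0.77 with quantile normalization, 0.71 with the code number as a random block and 0.86 without wild type replicate 2. In these last 3 runs the interval lay above 0, but the limma adjusted p was 0.982 or more. F2r, the thrombin receptor PAR1, was at 6.14, 5.93 and 5.69 in wild type and at 6.36, 6.34, 6.14 and 6.14 in knockout, a difference of 0.32 (SE 0.16, interval -0.04 to 0.69) that stayed between 0.21 and 0.43 with single arrays left out.

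Probe sets of clotting factors of plasma had low values, with no background level to set them against and no comparison of RNA amount between genes intended. Fga, Fgb and Fgg, the fibrinogen chains, had mean log2 levels of 2.39, 2.56 and 2.03, F2, prothrombin, of 2.33 and Proc, protein C, of 2.84, all below the median gene at 3.598. Their differences were 0.18 (SE 0.19), 0.31 (SE 0.25), 0.05 (SE 0.19), -0.22 (SE 0.16) and 0.15 (SE 0.14) in that order. F7, the ligand of tissue factor, and F10, the factor it activates, were at 4.07 and 4.33 and differed by 0.08 (SE 0.17) and by -0.01 (SE 0.18). Tfpi, the inhibitor of the tissue factor pathway, was at 3.69 and differed by 0.10 (SE 0.14).

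**Figure D4:**
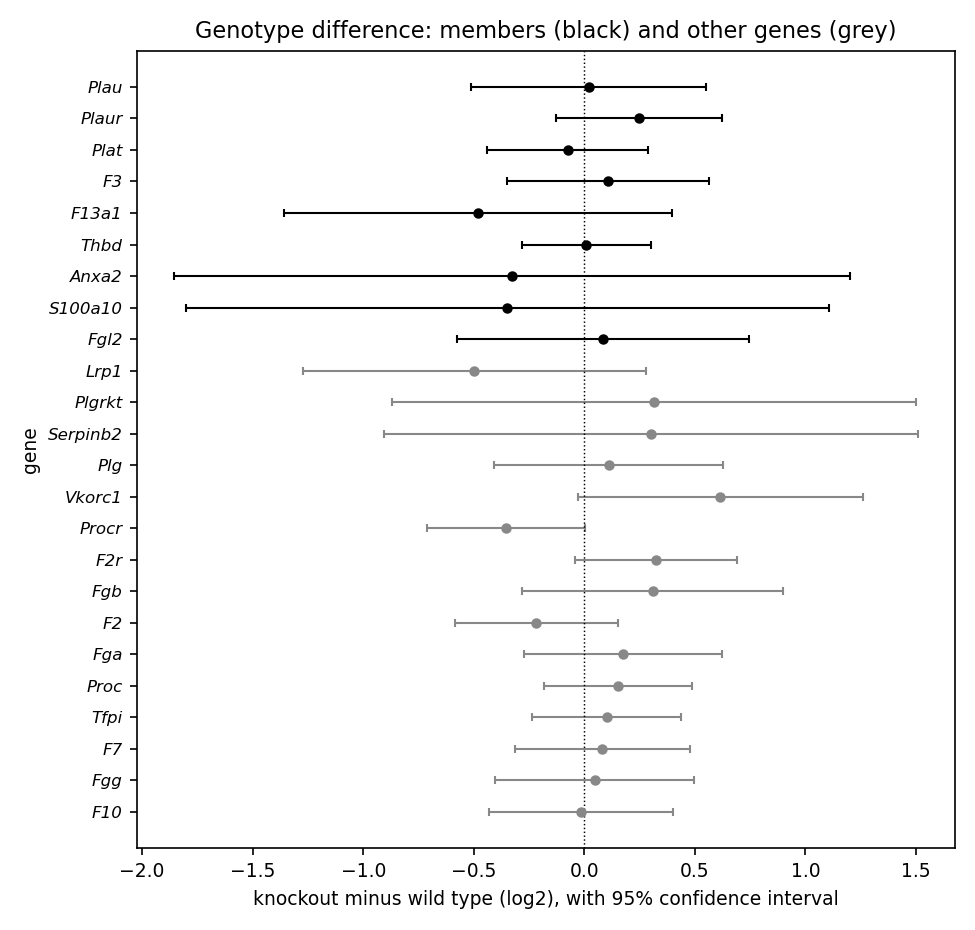
Knockout minus wild type (log2) with limma's 95% confidence interval for the 9 genes (black) and the other genes of fibrinolysis and coagulation named in the text (grey). Every interval includes 0, that of Procr by the least, and those of Anxa2 and S100a10 are the widest of the 9.

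The genes whose pattern over the 7 arrays was closest to each member were found by the root mean square difference of centred log2 values among the 10261 genes left after those not above the median gene, the 9 themselves, predicted genes, receptors of smell and pheromones, small RNAs and gene segments of antigen receptors were removed. Atp1b3 (0.0876) and Max (0.123) were closest to Anxa2, whose own root mean square around its mean was 0.873. Grn (0.0728) and Psmb7 (0.0844) were closest to S100a10, at 0.832. For F13a1, at 0.532, they were Atg12 (0.144) and Ccdc50 (0.178), and for Fgl2, at 0.348, Nptn (0.0603) and Skint1 (0.0612). The other 5 genes varied less, at 0.0714 to 0.262, so likeness to them says little. They lay closest to Tsacc and Gpd1 for Plau, Nr2f6 and Hcst for Plaur, Itfg2 and Meox1 for Plat, Mfsd8 and Zeb2os for F3, and Msantd2 and Pik3c2b for Thbd, at 0.0386 to 0.123. After quantile normalization 2 of the 9 genes kept the closest gene named here.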

How the data were processed

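Per the submitters' processing notes, the deposited log2 values of each array came from RMA. Its version, its probe-set definition and the genome build are not given in the sources used here. Of 25206 probe sets, 23185 had 1 gene symbol in the platform annotation and 2021 were unnamed, and no gene had several. Symbols were updated by Entrez number through a RefSeq table of GRCm38.p6. Groups came from the sample titles.

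All named genes were fitted together with limma 3.58.1 (lmFit, eBayes) in R 4.3.3 on the deposited values of the 7 arrays, without a filter or new scaling, two-sided, with p-values adjusted over 23185 genes by Benjamini and Hochberg's method and a threshold of 0.05. The fit was tested on simulated data. All 9 genes also lay above the dimmest 30% of genes. Tables and figures were made with Python 3.11.15 and matplotlib 3.10.9. Precision is limited by how few arrays there are.

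The 9 genes, the lists of other fibrinolysis genes, other coagulation genes and cell markers, and the tests were chosen with earlier results of these data known. Named beside the 9 were preset direct partners from the 2 pathway lists, any gene of those 2 lists with an unadjusted p under 0.05 (there was none), the 2 largest differences of each of them, and the 2 genes closest in pattern to each of the 9. Replicate numbers 1 to 3 are shared by the genotypes. Deviations from the genotype means correlated at -0.0858, -0.145 and 0.0341 for the same number, so the numbers were not taken to pair arrays. Alternatives were other moderation, a dim filter, quantile normalization, median centring, array weights, blocks by replicate number or code suffix, all probe sets, an exact permutation test, and leaving out arrays. A random block by code number was added after seeing the data.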

Additional observations from a re-analysis of the deposited data

Results flagged for a closer look

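In 6 of 24 genes, 1 knockout array lay far from the other 3 by Dixon's criterion for the gap over the range, which chance meets in about 1 of 20 groups. In Plaur knockout replicate 2 was at 4.815, the others at 4.406. In Anxa2 knockout replicate 3 was at 6.793, the others at 7.383 to 7.463. In Fgl2 knockout replicate 1 was at 5.521, the others at 5.93 to 5.934. In Plg knockout replicate 1 was at 2.833 against 2.689, in Proc knockout replicate 2 at 3.12 against 2.831 to 2.842, and in Tfpi knockout replicate 4 at 3.913 against 3.671. In Plaur, Plg and Tfpi the other 3 arrays shared 1 exact value, for which the gap equals the range whatever its size. In Fgl2 and Proc knockout replicates 3 and 4 shared 1 exact value. The chance rate does not allow for such ties, so the number of flags cannot be set against it.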

How the results depend on the processing

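At an adjusted p under 0.05, 1 gene of the whole table passed and 0 of the 9. The count over all genes was 0 with trend and robust moderation, quantile normalization, median centring, all probe sets, either block, wild type replicates 1 and 3 left out together, or any single array left out (0 to 0), and 1 without the dimmest 30% of genes or with the code number as a random block, an alternative chosen after seeing the data. Array weights called 4032 genes, and 1 of the 9, F13a1. Of the other named genes they called F7 (0.34, limma adjusted p 0.0161), F2r (0.32, 0.0187), F2 (-0.30, 0.0276) and Plgrkt (-0.54, 0.0477). F7 was also at 0.34 without wild type replicates 1 and 3. With array weights the wild type value rests on replicate 2. The count at an unadjusted p under 0.05 was 436 genes, against 710 with quantile normalization, 7364 with array weights, 251 and 278 with the replicate and code suffix blocks, 2024 without both wild type replicates 1 and 3 (1 wild type array, taken to vary like knockout) and 249 to 2786 with single arrays left out.

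Signs turned as follows, and the cause was not tested. With the replicate block, which called 0 genes, Plau was at -0.083, Plat at 0.012, Thbd at -0.0076 and F10 at 0.060; with the suffix block Thbd was at -1.80e-05; with quantile normalization Fgg was at -0.022. With array weights Plat was at 0.0074, F3 at -0.056, Fgl2 at -0.097, Plgrkt at -0.54 (limma adjusted p 0.0477), Serpinb2 at -0.52, Fgg at -0.095 and F10 at 0.083. Without both wild type replicates 1 and 3, F3 was at -0.037, Fgl2 at -0.10, Plgrkt at -0.54, Serpinb2 at -0.48, Fgg at -0.11 and F10 at 0.075. With single arrays left out the ranges were -1.16 to 0.39 for Anxa2, -1.12 to 0.37 for S100a10, -0.25 to 0.32 for Fgl2, -0.043 to 0.22 for F3, -0.086 to 0.14 for Plau, -0.16 to 0.012 for Plat, -0.026 to 0.059 for Thbd, -0.14 to 0.32 for Plg, -0.39 to 0.74 for Plgrkt, -0.29 to 0.69 for Serpinb2, -0.046 to 0.25 for F7, -0.085 to 0.15 for Fgg and -0.13 to 0.15 for F10. They were 0.052 to 0.52 for Fgb, 0.063 to 0.27 for Fga, 0.075 to 0.19 for Proc, -0.33 to -0.14 for F2 and 0.011 to 0.17 for Tfpi, with no change of sign. F13a1 and Plaur kept their sign in every alternative run.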
